A study of Homo sapiens with 24 samples.

Results

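SCG2, EDN3, HAS3, CSMD2, NRP1, ABHD17C and SIRPB1 are 7 of the 58735 genes counted in HT-144 cells, and they share 1 pattern: each had a higher read count, scaled to library size, when SREBF1 was depleted with small interfering RNAs (siRNAs) than when it was depleted with either of 2 antisense oligonucleotides (ASOs). They were chosen by that pattern, on the scaled counts of siSREBF1 and of both ASO libraries, so the siRNA-to-ASO ratios below describe the choice and are not tested. The question addressed here is where each gap came from: a higher level with the siRNAs than with their non-targeting control, a lower level with the ASOs than with theirs, or a difference between the controls themselves.

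HT-144 is an established human melanoma line derived from a metastatic site. Its cells were reverse transfected with a lipid reagent for 3 days and polyadenylated RNA was sequenced with strand kept. The SREBF1-targeting groups were siSREBF1, a pool of siRNAs at 50 nM, and ASO-SREBF1-S1 and ASO-SREBF1-S4, each a single ASO at 5 nM. The control groups were siNegative, a scrambled siRNA at 50 nM, ASO-Neg, a non-targeting ASO at 5 nM, and mock, which got no oligonucleotide. All 6 groups shared the line, the transfection reagent and a medium with insulin, transferrin and selenium. Each group was 1 library, so chemistry, dose and SREBF1 sequence targeted cannot be told apart between siSREBF1 and the ASOs.

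The libraries held 12916478 to 47900277 gene counts, ASO-SREBF1-S1 being the deepest, and all 7 genes had at least 31 counts in every library. SREBF1 itself, the targeted gene, stood at 55.0, 77.1 and 70.4 CPM (counts scaled to library size with TMM factors) in siSREBF1, ASO-SREBF1-S1 and ASO-SREBF1-S4, against 250 in siNegative, 217 in ASO-Neg and 232 in mock. It was at 22.1% of siNegative with the siRNAs, and at 35.5% and 32.4% of ASO-Neg with S1 and S4. Depletion was thus present in all 3 targeting libraries, and SREBF1 was lower in siSREBF1 than in S1 by 0.49 (interval -0.60 to -0.37) and than in S4 by 0.36 on the log2 scale (interval -0.49 to -0.22). All 8 melanocytic markers read were detected in every library, with MITF, SOX10, PMEL and DCT at 397 CPM or more and TYR at 152 to 255, TYRP1 at 78.3 to 181, PAX3 at 15.7 to 25.1 and MLANA at 11.9 to 19.9 CPM.

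As background, SREBF1 encodes SREBP-1, a membrane-bound transcription factor that is cleaved when sterols are low and then turns on genes of fatty acid synthesis. None of the 7 genes belongs to that textbook target set. Most of them act at the cell surface or outside the cell. SCG2 (secretogranin II) is a granin packed into dense-core vesicles and cut into the peptide secretoneurin. EDN3 (endothelin-3) is a secreted peptide that acts on the receptor EDNRB and guides melanocyte precursors. HAS3 is a plasma membrane enzyme that spins the polysaccharide hyaluronan into the space around the cell. NRP1 (neuropilin-1) is a coreceptor of class 3 semaphorins and of VEGF. CSMD2 is a very large membrane protein built of CUB and sushi domains, SIRPB1 is a receptor of the signal regulatory protein family that signals through the adaptor TYROBP, and ABHD17C is a serine hydrolase of a family that removes palmitate from membrane proteins such as NRAS.

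The genes lie on 6 chromosomes of GRCh38 and all are protein coding in GENCODE release 44. SCG2 (ENSG00000171951) spans chromosome 2, 223596940 to 223602361, on the minus strand. EDN3 (ENSG00000124205) spans chromosome 20, 59300443 to 59325992, on the plus strand, and SIRPB1 (ENSG00000101307) spans 1561385 to 1620061 of the same chromosome on the minus strand. HAS3 (ENSG00000103044) spans chromosome 16, 69105653 to 69118719, on the plus strand. CSMD2 (ENSG00000121904) covers 651845 bases of chromosome 1, 33513998 to 34165842, on the minus strand. NRP1 (ENSG00000099250) spans chromosome 10, 33177492 to 33336262, on the minus strand, and ABHD17C (ENSG00000136379) spans chromosome 15, 80679684 to 80755621, on the plus strand. SIRPB1 shares exon bases with the gene ENSG00000260861 on its own strand and is a near copy of other SIRP genes in part, so its counts are uncertain. HAS3 overlaps exons of CHTF8 on the other strand, and NRP1 overlaps exons of ENSG00000238258 on the other strand. The counts used were those of each gene's own strand, and unstranded counting gave NRP1 1982 counts in siSREBF1 in place of 2373.

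Of the 7 genes, 3 have an entry in the RefSeq promoter table (GRCh38.p14): HAS3, CSMD2 and ABHD17C. The 250 bases before the start are shown for HAS3, a gene high with the siRNAs and near ASO-Neg with the ASOs, and for CSMD2, the gene with the lowest ASO-to-control ratios. The RefSeq start of HAS3 lies inside the GENCODE span of the gene, and neither stretch overlaps an exon of GENCODE 44. Capitals mark matches to the motifs searched on both strands, with no motif overlapping another in these stretches: the E-box CACGTG, the GC box GGGCGG and the CCAAT box CCAAT, besides a sterol element TCACNCCAC, an AP-1 element TGANTCA and a cAMP element TGACGTCA that had no match in the printed stretches.
HAS3, chr16:69107290-69107539, plus strand: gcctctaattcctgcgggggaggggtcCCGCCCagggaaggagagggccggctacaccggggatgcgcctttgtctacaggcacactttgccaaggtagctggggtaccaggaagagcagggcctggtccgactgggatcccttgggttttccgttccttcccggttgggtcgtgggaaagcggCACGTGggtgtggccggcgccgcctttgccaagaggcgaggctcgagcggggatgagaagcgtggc
CSMD2, chr1:34165843-34166092, minus strand: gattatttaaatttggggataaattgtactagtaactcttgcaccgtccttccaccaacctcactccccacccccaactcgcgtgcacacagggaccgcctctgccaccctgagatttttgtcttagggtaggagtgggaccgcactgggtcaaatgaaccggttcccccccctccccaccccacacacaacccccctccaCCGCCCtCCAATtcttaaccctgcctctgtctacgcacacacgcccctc
The HAS3 stretch held an E-box whose first base lies at -66 and a GC box at -223, counted back from the start. The CSMD2 stretch held a GC box at -49 and a CCAAT box at -42. CSMD2 has another RefSeq entry, not printed, which begins inside the gene and held 3 GC boxes and 2 CCAAT boxes. Of 35116 promoters with the same length of upstream sequence, 6.34% hold the E-box, 42.64% the GC box, 32.01% the CCAAT box, 0.88% the sterol element, 6.57% the AP-1 element and 1.65% the cAMP element. A match or its absence describes these letters and is not a statement on binding.

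In the contrast that chose them, siSREBF1 had more of every one of the 7 genes than either ASO library. With a rule of at least 2-fold, a 95% counting interval off 0 and at least 1 CPM in 1 of the 2 libraries, 6 of the 7 were past it over S1, where 2.22% of all genes were, and 5 over S4, where 1.1% were. These counts follow from the choice and are given as a description. Ordered by the smaller of the 2 log2 ratios among 14505 genes, SCG2 was 2nd with 2.77, CSMD2 6th with 1.88, EDN3 9th with 1.78, HAS3 14th with 1.55, SIRPB1 43rd with 1.12, NRP1 101st with 0.89 and ABHD17C 155th with 0.78. No fixed size set the list, so genes such as MSRB3-AS1 (2.86), OPCML (1.89) and CDH13 (1.81) stood among them in that order without being part of it.

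**Figure D1:**
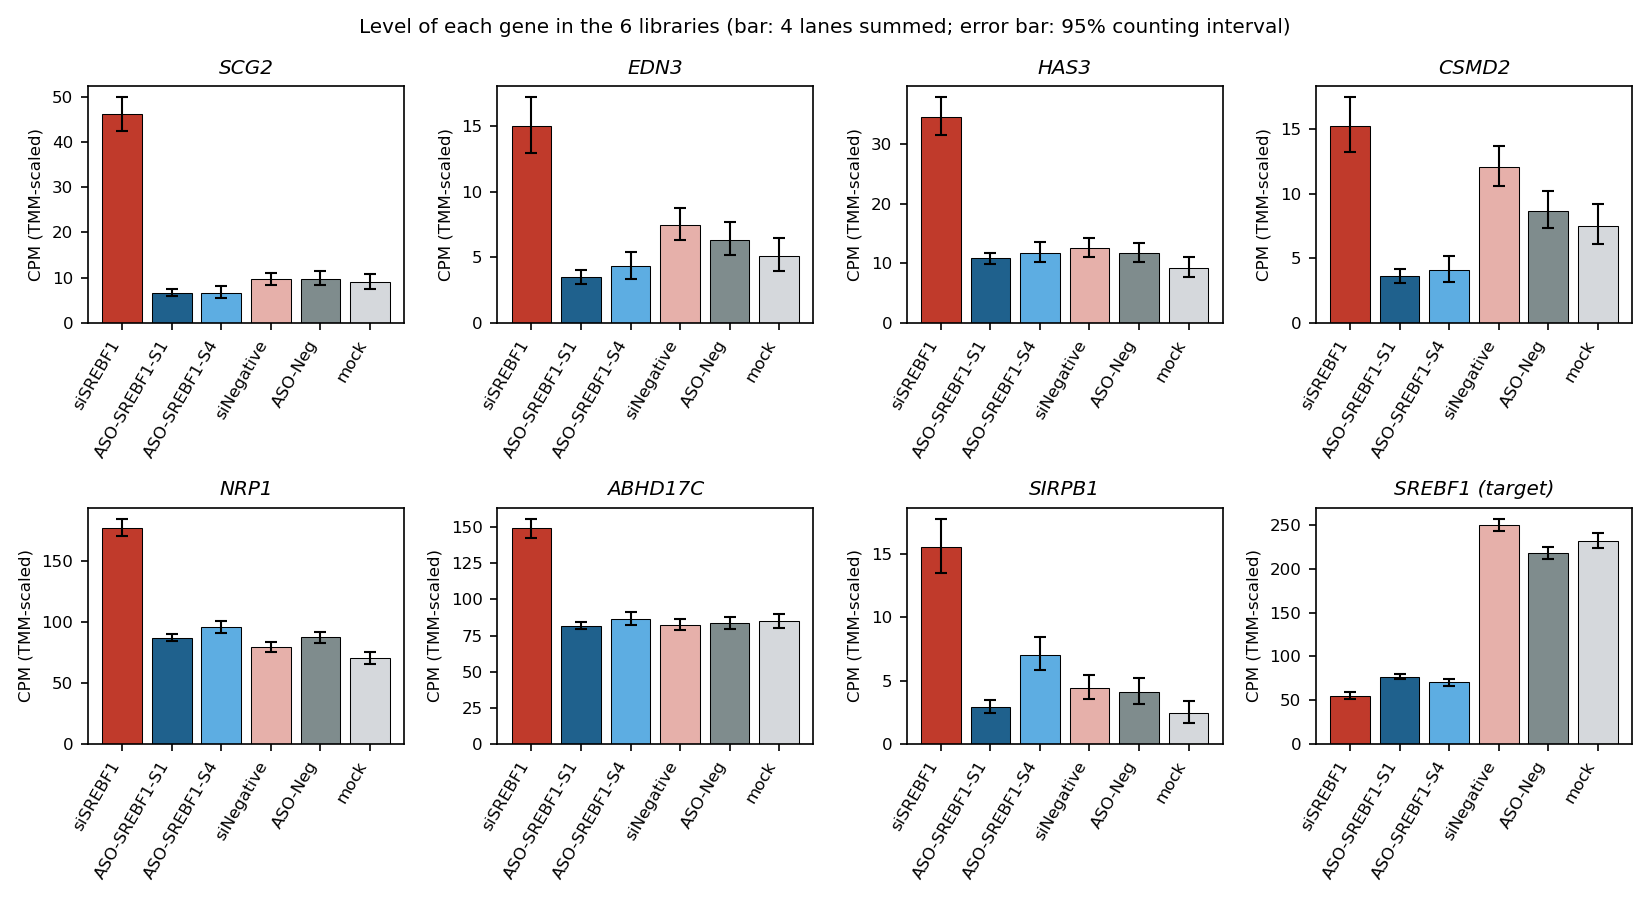
Level of each of the 7 genes and of SREBF1 in the 6 libraries, in TMM-scaled CPM on the y axis. Bars are 4 lanes summed, error bars are 95% counting intervals, and the x axis runs through siSREBF1, the 2 SREBF1 ASOs and then the 3 controls. For the 7 genes siSREBF1 is the tallest bar, and only for SCG2, EDN3 and CSMD2 do both ASO bars stand below all 3 controls.

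SCG2 was the clearest case of a higher level with the siRNAs. It had 46.0 CPM in siSREBF1 and 6.68 and 6.65 CPM in S1 and S4, against 9.62 CPM in siNegative, 9.77 CPM in ASO-Neg and 8.95 CPM in mock. The siSREBF1 library stood apart from the other 5, whose range was narrow, and the 3 controls differed by no more than 1.09-fold. Over siNegative the log2 ratio was 2.25 (95% counting interval 2.02 to 2.50), a fold of 4.75, and 99.9% of the genes tested lay below it. Over ASO-Neg the ratios were -0.54 for S1 (-0.82 to -0.27) and -0.55 for S4 (-0.92 to -0.20), both short of 2-fold. The lanes of siSREBF1 ran between 43.5 and 50.5 CPM, while the highest lane of the controls was 11.6 CPM in ASO-Neg. All such intervals and lane ranges cover counting error only, and with 1 library a group these ratios have no replicate check.

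HAS3 had 34.6 CPM in siSREBF1 and 10.8 and 11.8 CPM in S1 and S4, against 12.6 CPM in siNegative, 11.7 CPM in ASO-Neg and 9.26 CPM in mock. The ASO libraries sat inside the range of the controls. The log2 ratio was 1.45 over siNegative for the siRNAs (1.23 to 1.68), a fold of 2.73, and -0.12 (-0.35 to 0.13) and 0.0049 (-0.29 to 0.30) over ASO-Neg for S1 and S4. The gap between siSREBF1 and the ASOs was thus, for this hyaluronan synthase, almost wholly a higher level in siSREBF1.

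NRP1 had the highest CPM of the 7 in siSREBF1, though ABHD17C was above it in siNegative and mock. It had 177 CPM in siSREBF1 and 87.2 and 95.7 CPM in S1 and S4, against 79.3 CPM in siNegative, 87.4 CPM in ASO-Neg and 70.55 CPM in mock. The siSREBF1 library alone was high, and S1 lay among the controls. Over siNegative the log2 ratio was 1.16 (1.07 to 1.25), and over ASO-Neg it was -0.0031 for S1 (-0.089 to 0.083) and 0.13 for S4 (0.03 to 0.24). For this coreceptor S1 and ASO-Neg could not be told apart at this depth, and S4 was slightly above ASO-Neg.

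SIRPB1 differed between the 2 ASOs. It had 15.5 CPM in siSREBF1, 2.95 CPM in S1 and 7.08 CPM in S4, against 4.46 CPM in siNegative, 4.12 CPM in ASO-Neg and 2.43 CPM in mock. Over siNegative the siRNA ratio was 1.78 on the log2 scale (1.43 to 2.18). Over ASO-Neg the ratio was -0.47 for S1 (-0.91 to -0.05) and 0.77 for S4 (0.34 to 1.23), so S4 was above every control and S1 was below siNegative and ASO-Neg but above mock. S1 over S4 was -1.24 (-1.63 to -0.90), the 1 member called in that contrast, where 2.36% of all genes were called lower. SIRPB1 also rests on few reads, 208 counts in siSREBF1 and 31 in mock.

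EDN3 combined both directions. It had 15.0 CPM in siSREBF1 and 3.46 and 4.31 CPM in S1 and S4, against 7.45 CPM in siNegative, 6.36 CPM in ASO-Neg and 5.10 CPM in mock. The siSREBF1 library was highest, the 3 controls stood in the middle and both ASO libraries were lowest. The siRNA ratio over siNegative was 1.00 (0.70 to 1.33), which is at the 2-fold line itself. The ASO ratios over ASO-Neg were -0.86 for S1 (-1.23 to -0.51) and -0.55 for S4 (-1.02 to -0.11), short of 2-fold. Without lane 1, 2 or 3 the siRNA ratio was 0.99, 0.96 and 0.97 and EDN3 was no longer called, while over ASO-Neg and over mock it was 1.23 and 1.54.

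CSMD2 was the reverse of SCG2. It had 15.2 CPM in siSREBF1 and 3.59 and 4.06 CPM in S1 and S4, against 12.1 CPM in siNegative, 8.65 CPM in ASO-Neg and 7.53 CPM in mock. The 2 ASO libraries stood apart below the rest, and siSREBF1 was only a little above siNegative. The siRNA ratio over siNegative was 0.33 (0.06 to 0.61), while the ASO ratios over ASO-Neg were -1.25 for S1 (-1.60 to -0.94) and -1.07 for S4 (-1.53 to -0.66), both called lower. The S4 call was lost without lane 2, where its ratio was -0.76, and against mock, where it was -0.88 (-1.37 to -0.42), while against siNegative it was -1.55. Against mock in place of siNegative, CSMD2 was also called higher in siSREBF1, at 1.01 (0.66 to 1.38).

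ABHD17C had the smallest gap of the 7. It stood at 149 CPM in siSREBF1 and 81.9 and 86.5 CPM in S1 and S4, against 82.6 CPM in siNegative, 83.5 CPM in ASO-Neg and 84.9 CPM in mock. The other 5 libraries were almost level, and siSREBF1 stood above all of them. Its siRNA ratio over siNegative was 0.85 (0.76 to 0.95), a 1.80-fold difference that fell short of the 2-fold rule. The ratios over ASO-Neg were -0.03 for S1 (-0.12 to 0.06) and 0.05 for S4 (-0.06 to 0.16).

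Counted together, 5 of the 7 genes (SCG2, EDN3, HAS3, NRP1 and SIRPB1) were called higher in siSREBF1 than in siNegative, where 1.42% of 14322 genes were. CSMD2 was the only one called lower in S1 than in ASO-Neg, where 0.568% of genes were called lower, and the only one in S4, where 0.58% were. S1 and S4 share the ASO-Neg library, so these 2 counts are not independent of each other, and the siRNA count shares the siSREBF1 library with the choice of the genes. The median log2 ratio of the 7 was 1.16 in siSREBF1 over siNegative, against -0.0024 over all genes tested, -0.47 in S1 over ASO-Neg, against 0.01 over all genes, and 0.0049 in S4 over ASO-Neg, against 0.0058 over all genes. In RNA from a whole culture, fewer cells of a type and less RNA per cell cannot be told apart.

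**Figure D2:**
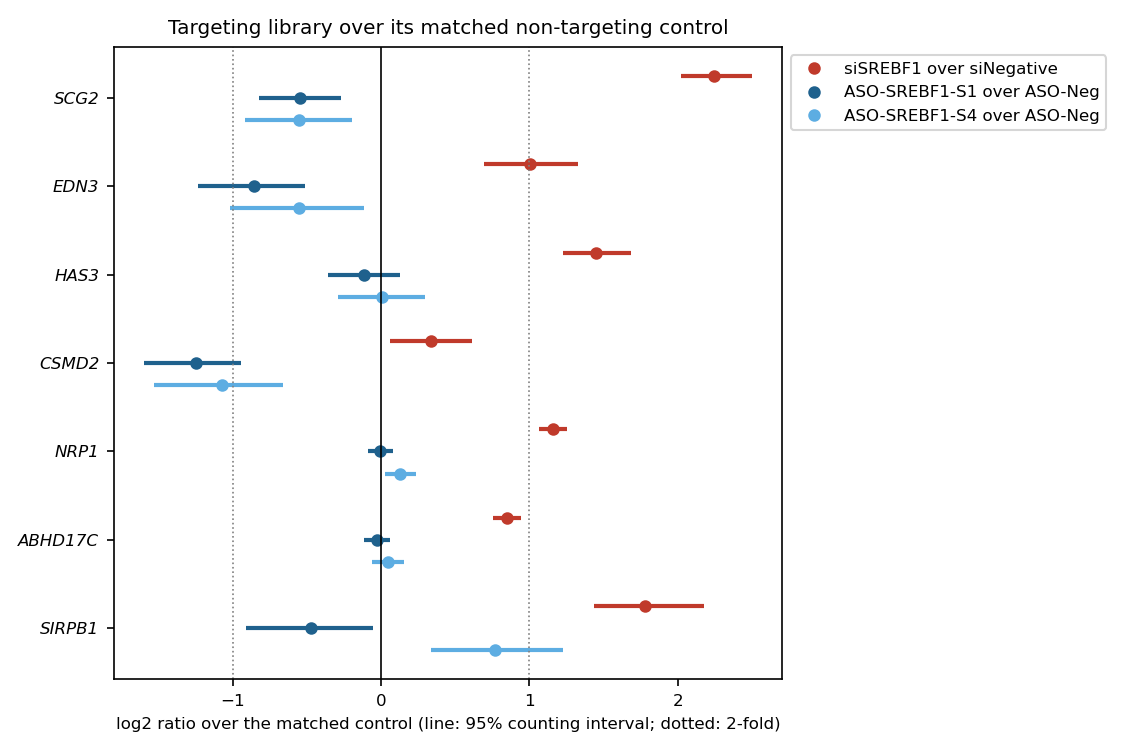
Log2 ratio of each SREBF1-targeting library over its matched non-targeting control, on the x axis, for the 7 genes down the y axis. Points are ratios, lines are 95% counting intervals and dotted lines mark 2-fold. SCG2, HAS3, NRP1 and SIRPB1 lie right of the upper dotted line with siSREBF1 and EDN3 lies on it, while only CSMD2 lies left of the lower one, with both ASOs.

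The gap between siSREBF1 and an ASO library is, on the log2 scale, the siRNA ratio over siNegative minus the ASO ratio over ASO-Neg plus the ratio of siNegative over ASO-Neg, and this sum is exact. For SCG2 the siRNA term was 81.2% of the gap to S1 and 81.0% of the gap to S4, with 19.6% and 19.8% from the ASO term. For HAS3 the siRNA term was 86.7% and 93.5%, and for ABHD17C it was 98.7% and 109%. NRP1 had siRNA terms of 113% and 131%, which pass the whole gap because siNegative was below ASO-Neg and S4 was above it. For these 4 genes the siRNA term was the larger part of both gaps, and SCG2 was also below ASO-Neg with both ASOs, with intervals off 0.

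CSMD2 split the other way. Its siRNA term was 16.3% and 17.8% of the gaps to S1 and S4, its ASO term 60.7% and 57.1%, and the difference between siNegative and ASO-Neg made up the remaining 23.0% and 25.2%. EDN3 stood between, with 48.0% and 56.3% from the siRNA term, 41.2% and 31.0% from the ASO term and 10.8% and 12.6% from the controls. SIRPB1 depended on the ASO: the siRNA term was 75.3% of the gap to S1 and 158% of the gap to S4, where the ASO term worked against the gap by -68.3%.

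**Figure D3:**
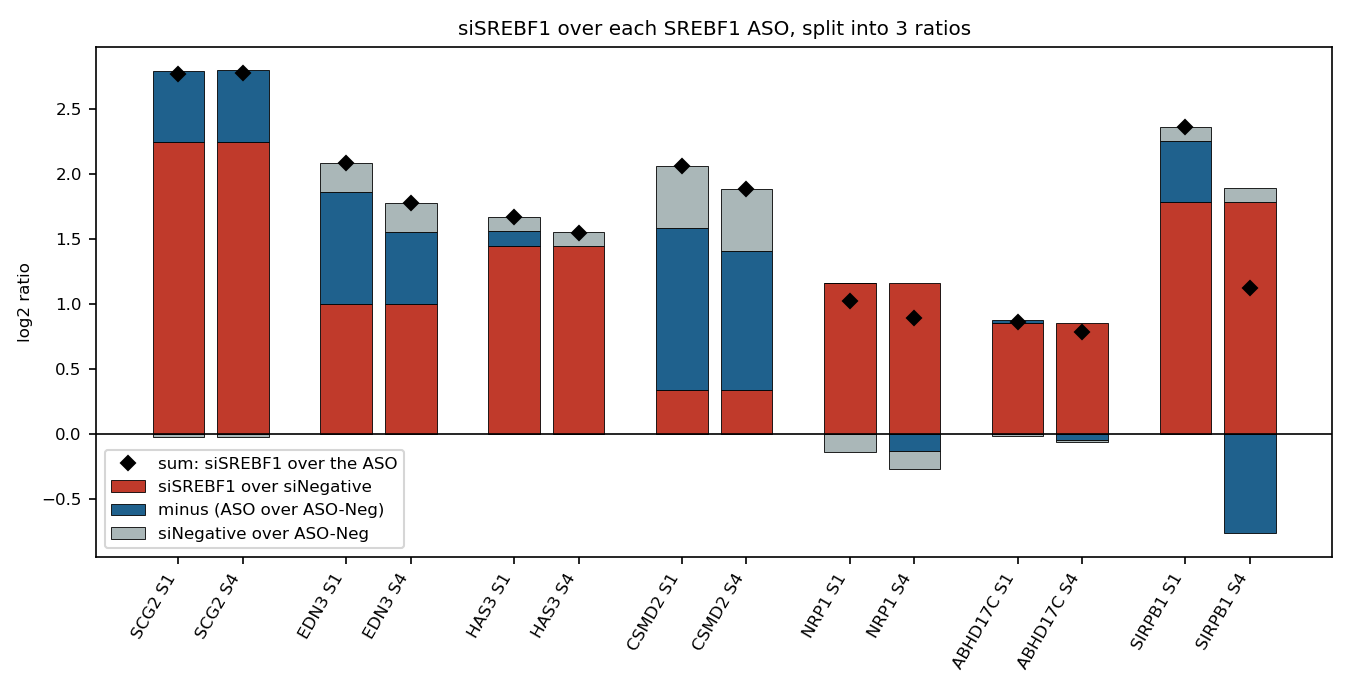
The log2 ratio of siSREBF1 over each SREBF1 ASO (diamond, y axis), split for the 7 genes into the 3 ratios that add up to it (stacked bars). Bars for SCG2, HAS3, NRP1 and ABHD17C are mostly the siRNA term, bars for CSMD2 mostly the ASO term, and the ASO term of SIRPB1 changes sign between S1 and S4.

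Over the 6 libraries, siSREBF1 was highest for all 7 genes, which follows in part from their choice on that library. For CSMD2 the lowest siSREBF1 lane of 12.1 CPM was below the highest siNegative lane of 13.8 CPM. The order with siSREBF1 highest and both ASOs lowest was seen for 3 genes, SCG2, EDN3 and CSMD2, and for 2.37% of all genes with 1 CPM in a library. For HAS3, NRP1 and ABHD17C, both ASO libraries were within 1.1-fold of ASO-Neg. The share of all genes that close to ASO-Neg was not counted, so this is not read as a trait of these 3 genes. Per kilobase of exon, where genes can be compared with each other, the levels in siSREBF1 were 41.1 RPKM for ABHD17C, 17.9 for SCG2, 15.4 for NRP1, 6.65 for HAS3, 4.56 for EDN3, 1.89 for SIRPB1 and 0.841 for CSMD2. In mock the same measure was 23.5 RPKM for ABHD17C, 6.12 for NRP1, 3.47 for SCG2, 1.78 for HAS3, 1.55 for EDN3, 0.416 for CSMD2 and 0.296 for SIRPB1, so SCG2 stood above NRP1 only in siSREBF1.

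**Figure D4:**
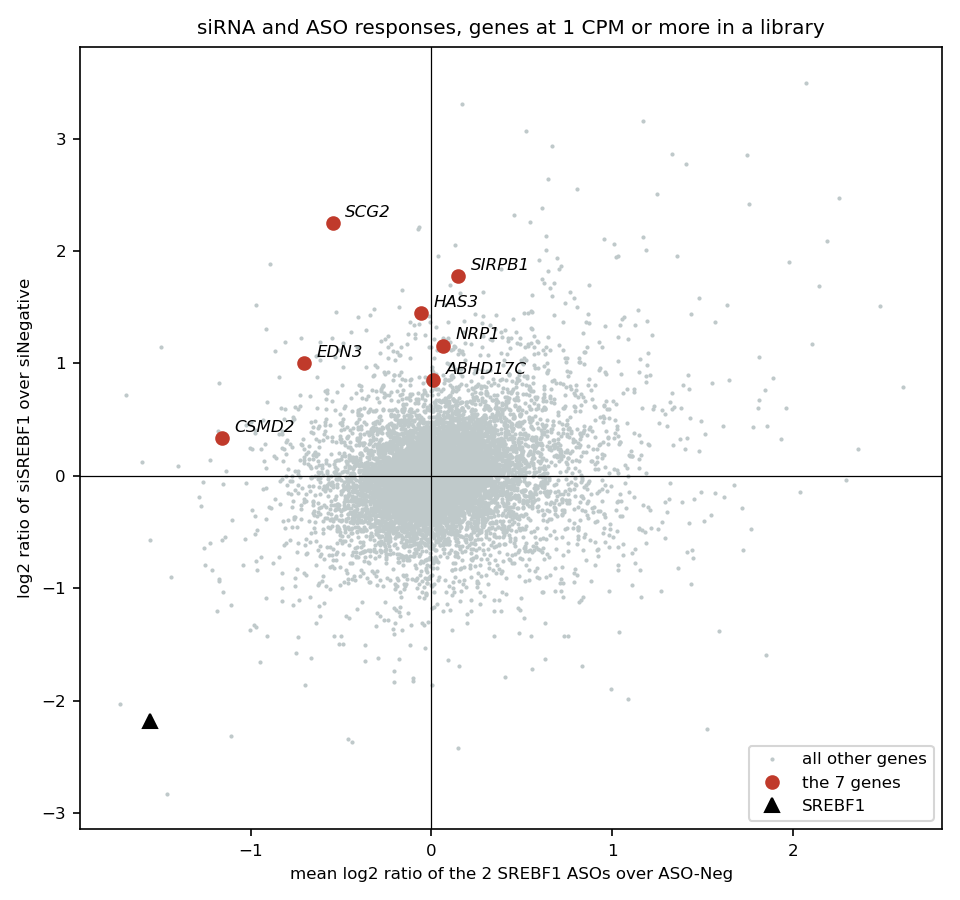
Log2 ratio of siSREBF1 over siNegative (y axis) against the mean log2 ratio of the 2 SREBF1 ASOs over ASO-Neg (x axis), for genes at 1 CPM or more in a library. Red points are the 7 genes, the triangle is SREBF1 and grey points are all other genes. HAS3, NRP1 and ABHD17C lie straight above the centre, SCG2 and EDN3 above and to the left, and CSMD2 far to the left. SIRPB1 lies above and slightly to the right, at a mean ASO ratio of 0.15 that averages -0.47 for S1 and 0.77 for S4.

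The stated choice set siSREBF1 against the 2 SREBF1 ASO libraries and not against the 3 controls, though earlier results of these data were known. The controls got different reagents or none, with 1 library each. Reagent effects and variation between libraries cannot be told apart in their spread. The highest control was 1.03-fold the lowest for ABHD17C, 1.09-fold for SCG2, 1.24-fold for NRP1, 1.36-fold for HAS3, 1.46-fold for EDN3, 1.60-fold for CSMD2 and 1.83-fold for SIRPB1. Against the highest control, siSREBF1 was 4.71-fold for SCG2, 3.48-fold for SIRPB1, 2.74-fold for HAS3, 2.03-fold for NRP1, 2.02-fold for EDN3, 1.75-fold for ABHD17C and 1.26-fold for CSMD2. CSMD2 was the only gene whose siRNA margin over the controls was smaller than the spread among them.

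Mock was the lowest control for 6 of the 7 genes. In siNegative over mock none of the 7 was called, where 0.378% of all genes were called higher and 0.336% lower. In ASO-Neg over mock none was called either, where 0.19% were called higher and 1.15% lower. The ratios of siNegative over mock were 0.85 for SIRPB1 (0.27 to 1.51), 0.67 for CSMD2 (0.33 to 1.04), 0.54 for EDN3 (0.11 to 0.99), 0.44 for HAS3 (0.12 to 0.77), 0.17 for NRP1 (0.05 to 0.29), 0.10 for SCG2 (-0.24 to 0.45) and -0.04 for ABHD17C (-0.15 to 0.07). The median was 0.44, against -0.00065 over all genes. For ASO-Neg over mock SIRPB1 had the largest ratio, 0.74 (0.13 to 1.42), and the median of the 7 was 0.31, against -0.0011 over all genes. In siNegative over ASO-Neg, where 0.748% of genes were called higher and 0.148% lower, none of the 7 was called, and CSMD2 had the largest ratio, 0.47 (0.18 to 0.78). These contrasts share libraries, so their values stand side by side and are not counted as repeats.

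The only comparison with more than 1 library a side set the 3 SREBF1-targeting libraries against the 3 controls. The edgeR quasi-likelihood F test (2-sided, Benjamini-Hochberg over 15123 genes) passed 3 genes as higher (0.0198%) and 6 as lower (0.0397%), and none of the 7 genes was among them. At an unadjusted edgeR p under 0.05 there was 1 of the 7, NRP1, as there were 10.2% of all genes, and none of the 7 passed with DESeq2 or limma-voom. SCG2 averaged 19.8 ± 22.7 CPM in the targeting libraries and 9.45 ± 0.44 CPM in the controls (SD, n = 3 each), with an edgeR log2 ratio of 1.00, SE 0.68 and adjusted p of 0.659. NRP1 averaged 120.0 ± 49.6 CPM and 79.1 ± 8.41 CPM (SD, n = 3 each), with 0.59, SE 0.24, an unadjusted edgeR p of 0.0335 and an adjusted p of 0.431. The edgeR adjusted p was 0.529 for SIRPB1 (log2 ratio 1.11), 0.597 for HAS3 (0.71), 0.615 for ABHD17C (0.33), 0.819 for CSMD2 (-0.41) and 0.937 for EDN3 (0.17). The targeting and control libraries overlapped in CPM for each of the 7 genes, while they did not for 17.4% of all genes. The 3 targeting libraries are those the genes were chosen on, for a gap among them, so a wide spread on that side follows from the choice and nothing is read from these p-values or that overlap. SREBF1, by contrast, averaged 67.5 ± 11.3 CPM against 233 ± 16.2 CPM and passed with a log2 ratio of -1.78, SE 0.12 and an edgeR adjusted p of 0.00164.

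The result depends on the siSREBF1 library and on the filter. Without that library the log2 ratios of SCG2, EDN3 and HAS3 were -0.50, -0.73 and -0.0033. With no filter on low counts SCG2, HAS3, NRP1, ABHD17C and SIRPB1 passed at edgeR adjusted p of 6.13e-10, 3.58e-05, 2.76e-07, 0.0365 and 1.17e-06. The log2 ratio of SCG2 hardly moved, at 0.992 with no filter and 0.996 with it. These genes were chosen on the targeting libraries, so nothing is read from these p-values either. Nothing says that the libraries came from separate cultures, and each side holds different reagents. A p-value here sets a difference against an estimate of the spread between these libraries, which may be in part technical.

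Genes related to each of the 7 by function were read in the same contrasts. Each list also holds the chosen gene itself, whose level in siSREBF1 was used in the choice. Of 17 granin and dense-core vesicle genes tested in siSREBF1 over siNegative, 4 were called higher, where 1.42% of all genes were. None was called lower, where 0.698% of all genes were. Without SCG2, 3 of 16 were called higher. These 3 were PCSK2, a prohormone convertase (21.0 CPM in siSREBF1, 8.91 CPM in siNegative, log2 ratio 1.23, interval 0.96 to 1.51), CHGB, the granin chromogranin B (3.43 CPM and 1.42 CPM, 1.22, 0.57 to 2.01), and PCSK1, another convertase (9.48 CPM and 4.30 CPM, 1.12, 0.73 to 1.55). The list's median was 0.16, against -0.0024 over all genes tested. In S1 over ASO-Neg none of 16 was called either way, where 0.674% of all genes were called higher. PCSK2 had 9.19 CPM in S1 and 7.57 CPM in S4, against 12.2 CPM in ASO-Neg, ratios of -0.41 (-0.66 to -0.17) and -0.69 (-1.03 to -0.37).

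S4 held another subset of that list. There 6 of 19 genes were called higher than in ASO-Neg, where 2.6% of all genes were, and none lower. They were SCG3 (2.43), PTPRN (1.77), CPE (1.67), SYT11 (1.53), SYT7 (1.44) and PCSK1 (1.20 on the log2 scale). CPE, the carboxypeptidase that trims prohormones, had 18.0 CPM in S4 against 5.59 CPM in ASO-Neg, while SCG3, a granin that anchors cargo to vesicle membranes, had only 1.05 CPM in S4 against 0.118 CPM in ASO-Neg, where 3 counts are worth 0.172 CPM, and its ratio has a wide interval of 1.08 to 6.31. PCSK1 had 8.12 CPM in S4 against 3.47 CPM in ASO-Neg. The others were low as well. PTPRN had 1.23 CPM in S4 against 0.294 CPM in ASO-Neg (interval 0.61 to 3.83). SYT7 had 2.40 CPM against 0.824 CPM (0.63 to 2.54) and SYT11 3.57 CPM against 1.18 CPM (0.85 to 2.41). CHGA, the usual granin of neuroendocrine cells, was at 0.431 CPM or less in every library.

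**Figure D5:**
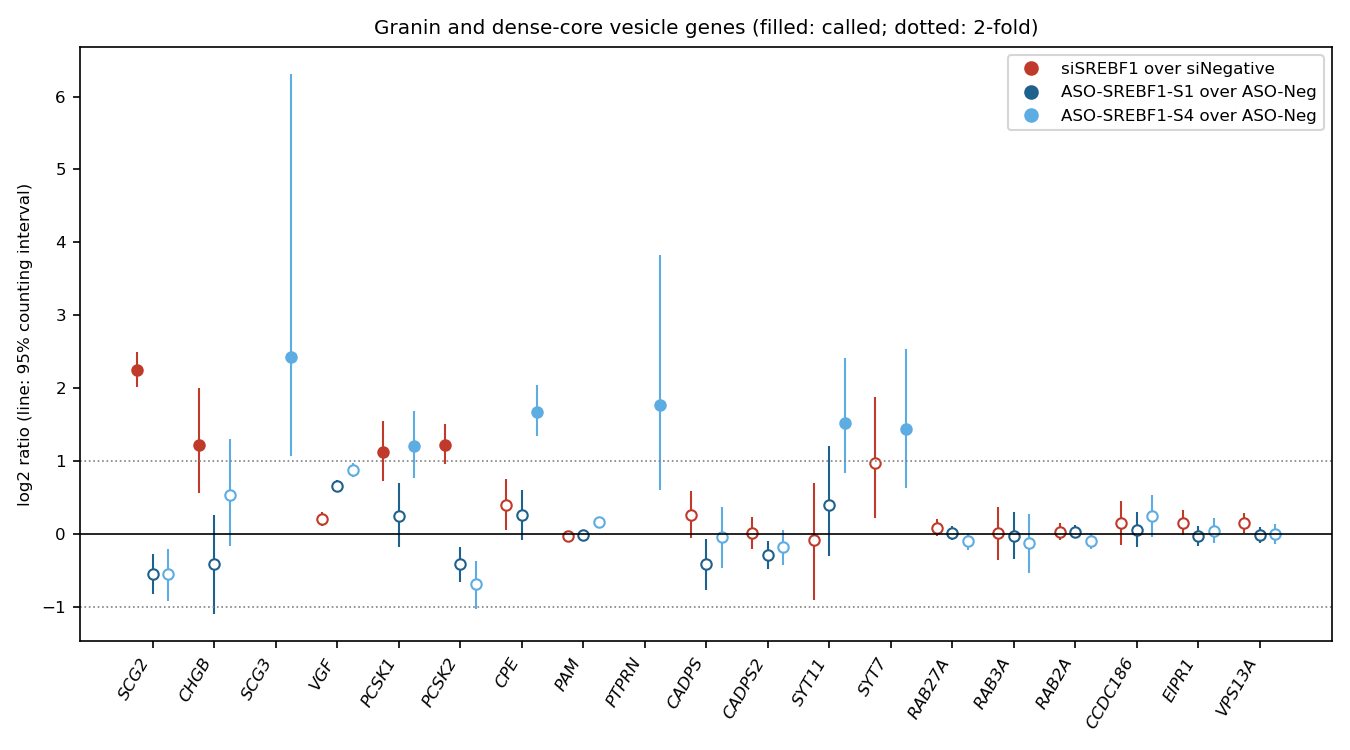
Log2 ratio over the matched control (y axis) for granin and dense-core vesicle genes (x axis) with siSREBF1, ASO-SREBF1-S1 and ASO-SREBF1-S4. Lines are 95% counting intervals, filled points were called and dotted lines mark 2-fold. Filled points of siSREBF1 are SCG2, CHGB, PCSK1 and PCSK2, filled points of S4 are 6 genes with PCSK1 shared, and SCG2 is below 0 with both ASOs.

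Of 9 endothelin genes tested in siSREBF1 over siNegative, EDN3 was the 1 called, where 1.42% of all genes were called higher. Without EDN3, which was chosen on that library, it was 0 of 8, too few to set apart from that share. None of 9 was called with S1 or with S4, where 0.674% and 2.6% of all genes were called higher and 0.568% and 0.58% lower. EDNRB, the receptor through which endothelin-3 acts on melanocytes, had 200 CPM in siSREBF1, 164 CPM in S1 and 188 CPM in S4, against 199 CPM in siNegative, 202 CPM in ASO-Neg and 208 CPM in mock. EDNRA, the other receptor, was between 2.41 and 3.09 CPM. ECE1, the protease that releases mature endothelins, had 84.0 CPM in siSREBF1, 73.5 CPM in S1 and 119 CPM in S4, against 98.1 CPM in siNegative, 87.6 CPM in ASO-Neg and 79.9 CPM in mock, with no call.

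HAS3 was likewise the 1 gene called of 18 hyaluronan genes in siSREBF1 over siNegative, where 1.42% of all genes were called higher. Without HAS3 it was 0 of 17. None of 18 was called with either ASO, where 0.674% (S1) and 2.6% (S4) of all genes were called higher. HAS2, the synthase of embryonic tissue and wounds, had 4.70 CPM in siSREBF1, 6.51 CPM in S1 and 4.80 CPM in S4, against 4.96 CPM in siNegative, 6.48 CPM in ASO-Neg and 6.20 CPM in mock, and HAS1 had no counts in any library. CD44, the main hyaluronan receptor, was abundant throughout, at 989 CPM in siSREBF1, 869 CPM in S1 and 869 CPM in S4, against 1121 CPM in siNegative, 1113 CPM in ASO-Neg and 1146 CPM in mock.

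NRP1 was the 1 gene called of 20 neuropilin, plexin, semaphorin and VEGF genes in siSREBF1 over siNegative, where 1.42% of all genes were called higher. Without NRP1, also a chosen gene, it was 0 of 19. Its paralog NRP2 had 392 CPM in siSREBF1, 371 CPM in S1 and 456 CPM in S4, against 462 CPM in siNegative, 424 CPM in ASO-Neg and 382 CPM in mock, so the 2 neuropilins did not share the pattern of levels. None of 20 was called with S1. With S4, 2 of 21 were called higher, the secreted semaphorins SEMA3F (5.97 CPM against 2.59 CPM in ASO-Neg, log2 ratio 1.18) and SEMA3G (1.29 CPM against 0.353 CPM, 1.63), both at low levels.

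CSMD2 has 2 paralogs. CSMD1 was nearly flat, between 7.99 CPM in siSREBF1 and 9.18 CPM in mock. CSMD3 had 4.85 CPM in siSREBF1, 4.02 CPM in S1 and 1.72 CPM in S4, against 4.71 CPM in siNegative, 4.47 CPM in ASO-Neg and 4.40 CPM in mock, so it was low in S4 only, with a log2 ratio of -1.33 (-2.06 to -0.73). Of CUB and sushi or complement control genes, none of 11 was called in siSREBF1 over siNegative. In S1 over ASO-Neg CSMD2 was the 1 of 11 called lower. In S4 over ASO-Neg 2 of 10 were called higher, the complement protein C3 (15.8 CPM against 6.89 CPM, 1.19) and CLU, or clusterin (8.99 CPM against 3.12 CPM, 1.5), and 2 lower, CSMD2 and CSMD3.

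None of 21 palmitoylation genes was called in any of the 3 contrasts with a matched control. For siSREBF1, S1 and S4, 1.42%, 0.674% and 2.6% of all genes were called higher. Not called means short of the rule and not unchanged. In siSREBF1 over siNegative NRAS was at -0.49 (-0.62 to -0.36) and ZDHHC5 at -0.82 (-0.94 to -0.71), while the list's median was 0.0052. The other depalmitoylases of the ABHD17 family, ABHD17A at 41.2 to 51.0 CPM and ABHD17B at 17.0 to 20.5 CPM over the 6 libraries, did not share the high value of ABHD17C in siSREBF1, where they had 42.8 and 20.1 CPM. Of 6 SIRP and CD47 genes tested, SIRPB1 was the 1 called in siSREBF1 over siNegative, where 1.42% of all genes were called higher. Without SIRPB1 it was 0 of 5, and none of 6 was called with either ASO. SIRPA, its inhibitory relative, had 92.8 CPM in siSREBF1, 82.4 CPM in S1 and 77.3 CPM in S4, against 88.3 CPM in siNegative, 87.2 CPM in ASO-Neg and 89.2 CPM in mock. CD47, the ligand of SIRPA, was between 120 and 133 CPM, and TYROBP, the adaptor SIRPB1 signals through in leukocytes, had no counts in any library. Of the 102 genes of the 7 lists tested between the targeting and the control libraries, none passed with edgeR or limma-voom. An unadjusted edgeR p under 0.05 was seen for 18 of the 102, and for 10.2% of all genes. With DESeq2 3 (CD44, PLXNA1 and PLXND1) passed, among 163 genes in all.

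Genes with the most similar levels over the 6 libraries were found among genes with at least 5 CPM in a library and a range of at least 1 on the log2 scale. SCG2 was nearest to RPL23AP82 (Pearson r of log2 CPM 0.953), VAV3 (0.952) and HAS3 (0.951). EDN3 was nearest to SLC30A10 (0.985), VAV3 (0.984) and ALK (0.983), and HAS3 to NRP1 (0.967), RPL23AP82 (0.967) and SCG2 (0.951). CSMD2 was nearest to CDH13 (0.981), COLEC12 (0.965) and KCNQ3 (0.962). NRP1 was nearest to MRGPRX4 (0.993), MAPK8IP2 (0.993) and EFNB2 (0.980), ABHD17C to RPL23AP82 (0.994), TMEM145 (0.969) and HAS3 (0.968), and SIRPB1 to SCARA5 (0.986), TMEM100 (0.983) and EPHB2 (0.982). All these values come from the same 6 libraries, where siSREBF1 is the highest for each of the 7, so they describe shape and are given with no p. ALK had 22.6 CPM in siSREBF1 and 5.87 and 7.69 CPM in S1 and S4, against 14.8 CPM in siNegative, 10.5 CPM in ASO-Neg and 9.50 CPM in mock. CDH13 had 61.6 CPM in siSREBF1 and 15.4 and 17.5 CPM in S1 and S4, against 56.0 CPM in siNegative, 38.6 CPM in ASO-Neg and 42.1 CPM in mock.

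Markers of other cells were also read, since some of the 7 genes are known from neuroendocrine cells, endothelium or leukocytes. The summed level of 5 neuroendocrine markers was 4.18 CPM in siSREBF1, 2.70 CPM in S1 and 4.00 CPM in S4, against 2.79 CPM in siNegative, 3.24 CPM in ASO-Neg and 3.14 CPM in mock, with NEUROD1 at 0 throughout. The 8 immune markers summed to 2.31 CPM in siSREBF1, 1.22 CPM in S1 and 3.14 CPM in S4, against 1.22 CPM in siNegative, 1.06 CPM in ASO-Neg and 1.1 CPM in mock, with TYROBP at 0. The siSREBF1 and S4 libraries were the highest for this sum and for SIRPB1 alike, the sum was below the level of SIRPB1 in each library, and its part in the SIRPB1 result was not tested. The 6 endothelial markers summed to 42.8, 58.3 and 38.4 CPM in siSREBF1, S1 and S4, against 38.7 CPM in siNegative, 38.7 CPM in ASO-Neg and 42.9 CPM in mock, nearly all of it KDR, while CDH5 was at 0.308 CPM or less. The 6 keratinocyte markers summed to 23.0 to 29.4 CPM and the 8 fibroblast markers to 675 to 978 CPM over the 6 libraries, with KRT1 at 0 and COL1A2 making up most of the second sum.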

How the data were processed

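Polyadenylated RNA of HT-144 cells was sequenced in 6 groups, each 1 library deposited as 4 lanes, which the series text calls technical replicates. The deposited values are raw read counts per gene made by the authors, with a column for unstranded counting and 1 for each strand. Reads were aligned with STAR 2.6.1a to GRCh38 and FastQC was used, as the submitters' processing notes record. Which annotation was counted is not given in the sources used here. The reverse-strand counts were used, since the other strand held 6.47% to 7.79% of both. Lines that name no gene, 18.2% to 19.3% of read pairs, stayed out of library sizes and tests. Lanes of the same library agreed within sampling noise (chi-square per degree of freedom 1.00 to 1.07, and 2.03 to 8.69 between libraries) and were summed. A count of 3 was worth 0.0626 to 0.232 CPM.

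CPM were scaled by TMM factors. Ratios of 1 library over 1 library are log2 ratios with a prior count of 2 and exact binomial 95% intervals. Called means at least 2-fold, an interval off 0 and at least 1 CPM in 1 of the 2 libraries. All 7 genes met that minimum in every contrast. The replicated test was edgeR 4.0.16 in R 4.3.3 with filterByExpr, quasi-likelihood F test and Benjamini-Hochberg adjustment at 0.05. The test was checked on simulated data with known changes. DESeq2 1.42.0 and limma 3.58.1, RLE factors, library size alone, unstranded counts, other minimums, folds and prior counts, a chemistry term, left-out lanes and left-out libraries were the alternatives, and another control in place of the matched one was added after seeing the data.

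The 7 genes, the related gene lists and the tests were chosen with earlier results of these data known. Named besides the 7 genes and SREBF1 are fixed partners (EDNRA, EDNRB, ECE1, NRP2, CD44, HAS1, HAS2, CSMD1, CSMD3, ABHD17A, ABHD17B, SIRPA, CD47, TYROBP, CHGA and CHGB), up to 4 called genes per list by size, and the 3 most correlated genes per member. SYT7, PCSK1 and PCSK2, past the fourth of their list by size, were named after their values were seen. So were MSRB3-AS1, OPCML and CDH13 in the ranking, ZDHHC5 and the ratio of NRAS, PLXNA1, PLXND1 and the markers. Gene positions are from GENCODE 44, which matched 58207 of 58735 identifiers with 99.93% of the counts, and promoter sequences from RefSeq. Results for some genes of the lists are not reported here.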

Additional observations from a re-analysis of the deposited data

Results flagged for a closer look

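For 3 genes every library moved one way with the siRNAs and the opposite way with the ASOs, relative to the matched non-targeting control. The siRNA log2 ratio minus the mean of the 2 ASO log2 ratios was 2.79 for SCG2, 1.71 for EDN3 and 1.5 for CSMD2, and with 1 library a group this difference was not tested. For SIRPB1 the ASOs lay on opposite sides of ASO-Neg, and S1 over S4 was -1.24 on the log2 scale, also not tested.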

How the results depend on the processing

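No paired analysis was possible because the shared numbers are lanes of 1 library, which were summed, so each group is 1 library. The number of members called higher in siSREBF1 over siNegative was 4 to 6 under all alternatives run. It was 4 to 5 when 1 lane number was left out, EDN3 being the gene lost. The 1 member called lower in S1 over ASO-Neg became 2 (EDN3 and CSMD2) with a 1.5-fold rule, or with siNegative as the control, and 0 with a 10 CPM minimum. The 1 called lower in S4 over ASO-Neg became 0 with a 10 CPM minimum, 0 with mock as the control, and 0 to 1 when 1 lane number was left out, lane 2 being the one. Each of the 168 recomputed ratios of a member over its matched control lay within the counting interval of its main value. The 9 genes of the edgeR test became 163 with DESeq2, 5 with limma-voom, 509 with no filter on low counts, 0 with chemistry as a term, and 1 to 103 when 1 library was left out (103 without ASO-SREBF1-S1, 3 without siNegative, and 1 without ASO-Neg or mock). The direction turned for EDN3 with limma-voom (-0.36) and, without the siSREBF1 library, for SCG2 (-0.50), EDN3 (-0.73) and HAS3 (-0.0033). SREBF1 did not pass with chemistry as a term, at -1.82 and an edgeR adjusted p of 0.112. The causes were not tested, beyond fewer libraries or genes where a setting removes them. Other scalings moved the median of all genes by at most 0.07 on the log2 scale. Depth limits SIRPB1, EDN3 and CSMD2 most, with 31, 65 and 96 counts in mock.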

Other observations

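CEMIP, which binds and degrades hyaluronan, had 371 CPM in siSREBF1, 158 CPM in S1 and 214 CPM in S4, against 235 CPM in siNegative, 194 CPM in ASO-Neg and 169 CPM in mock. It was highest in siSREBF1, as HAS3 was, but was not called at 2-fold. VGF, another granin family precursor, had 118 CPM in siSREBF1, 120 CPM in S1 and 140 CPM in S4, against 102 CPM in siNegative, 76.2 CPM in ASO-Neg and 125 CPM in mock. Its lowest library was thus the non-targeting ASO, unlike SCG2. Both genes were named after their values were seen.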
